A study of Bos taurus with 8 samples.

Results

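Single cells of day 9 bovine blastocysts were compared between 2 classes that the authors' cell table calls LB PE and LB EPI. PE is short for primitive endoderm, the layer that cattle embryologists name hypoblast, and EPI is short for epiblast. The members are all cells with either class in that table, 70 of the 286 wildtype cells with values, of which 25 were LB PE and 45 were LB EPI. Every cell came from an unedited (wildtype) Bos taurus embryo, 9 days after fertilization, and carried no treatment in the labels. The labels describe 8 libraries, of which 6 were wildtype, and the other two were not analysed here. LB PE cells came from replicate 2 (2 cells), replicate 3 (14 cells) and replicate 5 (9 cells). LB EPI cells came from replicate 1 (1 cell), replicate 2 (11 cells), replicate 3 (9 cells) and replicate 5 (24 cells). The library was the replicate, because the labels name no embryo for a cell. P-values therefore reflect only how libraries spread, and that spread may be technical. The spread was pooled over 16 averages of all 7 classes in the wildtype libraries, morula and day 8 cells included, and not taken from LB PE and LB EPI alone. Polyadenylated RNA was captured with oligo(dT), reverse transcribed and amplified, and values are given as CPM, counts per 1000000 assigned reads of a cell.

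The blastocyst has an inner cell mass that splits into epiblast, the source of the embryo proper, and hypoblast, an epithelium that spreads along the inside of the cavity and forms the yolk sac. In mammals the choice is tied to fibroblast growth factor (FGF) signalling between the cells. Epiblast cells keep the pluripotency factors NANOG, SOX2 and POU5F1, and hypoblast cells express GATA6, then GATA4 and SOX17, and the receptor PDGFRA. The hypoblast is also known for laying down a basement membrane and for secreting apolipoproteins.

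The 2 classes differed in depth. LB PE cells held a median of 39210 reads (5703 to 223211) and 6260 detected genes, and LB EPI cells held a median of 196981 reads (15884 to 481658) and 8260 genes. Within replicate 3 the medians were 37976.5 and 176029 reads, and within replicate 5 they were 98488 and 197767. The class with fewer reads per cell was thus LB PE in both libraries. All 48 cell barcodes recur in at least 2 libraries and 46 in all 6, so cells were told apart by barcode and library together. No doublet caller was run.

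**Figure D1:**
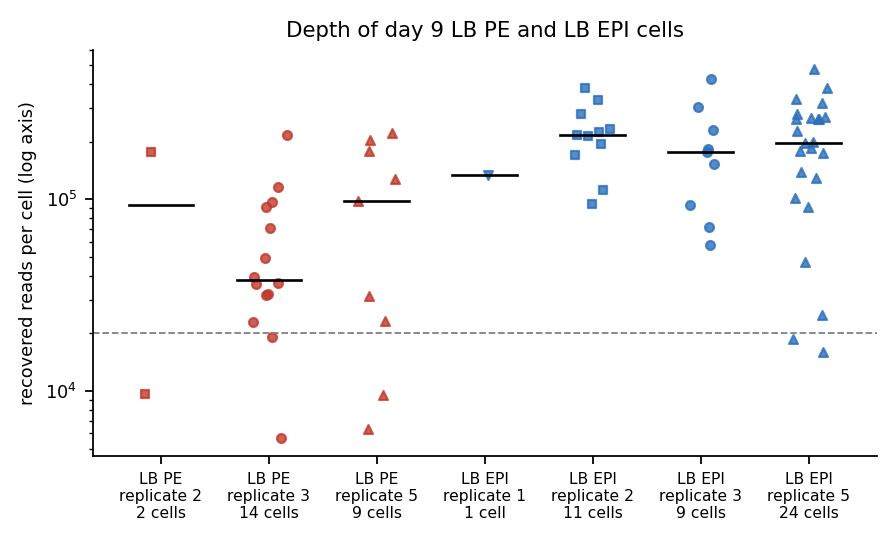
Recovered reads per cell (log axis) for each class and library. Points are cells, black bars are medians, and the dashed line marks 20000 reads, below which 5 LB PE and 2 LB EPI cells lie.

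The classes were set against summed markers of each lineage. Of the hypoblast markers SOX17, an endoderm transcription factor, was at 0 in every LB PE and LB EPI cell. The 13 hypoblast markers summed to a mean of 7245 CPM in LB PE of replicate 3 and 7149 CPM in LB PE of replicate 5. FN1 alone supplied most of both of these sums, and its levels are given below. In LB EPI they summed to 1700, 1187 and 1726 CPM in replicates 2, 3 and 5. The epiblast markers (10 of 11 in the table) summed to 638 and 472 CPM in LB PE and to 2113, 2320 and 2429 CPM in LB EPI. Each class thus held the higher sum of its own markers in every library. The sources used here do not say how cells were given their class, and these same values may have been used. For genes that define a class, the tests below are then no independent evidence of a difference.

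**Figure D2:**
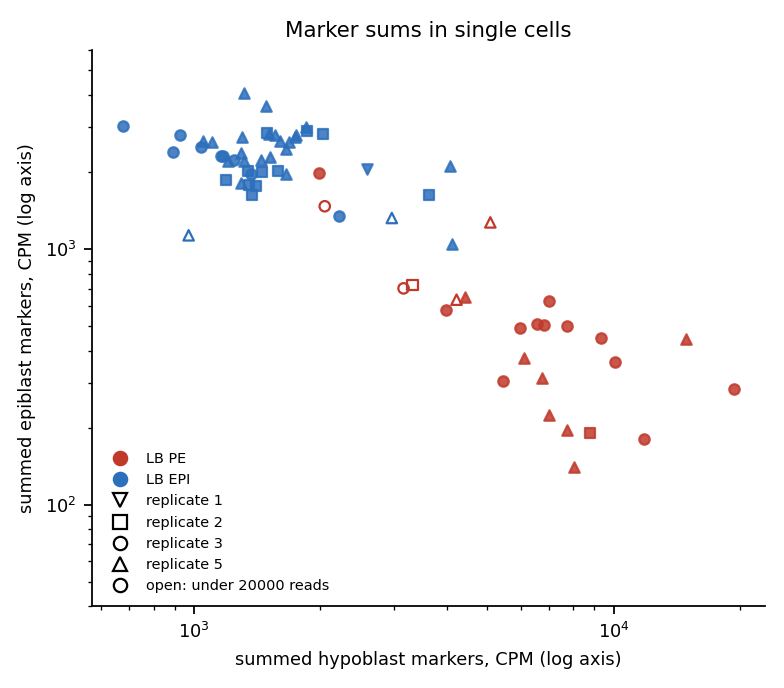
Summed epiblast markers against summed hypoblast markers in each cell, both in CPM on log axes, coloured by class and shaped by library, with open symbols for cells under 20000 reads. Most cells of each class form a group of their own, and the deepest LB PE cell of replicate 3 lies nearest LB EPI, at 1982 CPM of hypoblast and 1978 CPM of epiblast markers.

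CPM values were averaged per library and class wherever at least 3 cells were present, which left LB PE in replicates 3 and 5 and LB EPI in replicates 2, 3 and 5. Over 10785 genes tested with limma, 720 (6.68%) had an adjusted p under 0.05 and are called changed here. Of these, 386 (3.58% of the genes tested) were higher in LB PE and 334 (3.1%) were lower. All 720 moved the same way inside replicate 3 and inside replicate 5, as did 6345 of all 10785 genes tested. Of the 720, 708 had library averages that did not overlap between the classes. Over all genes tested, 1600 were apart with LB PE higher and 1575 with LB PE lower. The 720 were called from these same averages, so neither count is independent evidence. The highest rises included RSPO3, FOLR1, KLB, CLU, PDGFRA, FN1 and GATA6, and the largest falls included LRRC3, ERAS, IGFBP3, MDK, NANOG and TDGF1. The median log2 change over all genes tested was -0.01. A log2 change here is on the log2(CPM + 10) scale, which understates changes of genes with low values.

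The number of calls differed between the alternatives. The LB PE averages rested on a mean of 61866 and 100398 reads per cell and the LB EPI averages on 187896 to 222793. With the log of this depth as a covariate, 10 genes were called, 9 of them among the 720, and the median SE rose from 0.36 to 0.773. Every LB PE average was shallower than every LB EPI average, so depth and class cannot be told apart with these libraries. The 9 genes were FOLR1, FN1, SLC1A3, AK3, S100A10, PMAIP1 and OXCT1, higher in LB PE, and PHC1 and ERAS, lower. Of the 720 genes, 701 kept their direction under that covariate. Without replicate 5 OXCT1 (1.04), PMAIP1 (2.34) and PHC1 (-1.69) were not called. Calls numbered 402 with only the LB PE and LB EPI averages, 411 when each cell was thinned to 20000 reads and 1032 when cells under 20000 reads were left out. They numbered 465 without replicate 2 and 260 without replicate 5, where 205 were higher and 55 lower. The share of calls that were higher in LB PE was 53.6%, against 72.2% with limma-voom on recovered reads and 23.9% when log values were averaged over cells. The genes called in all 21 alternatives other than the depth covariate numbered 53, of which 40 were higher and 13 lower. In the text below, the number of these 21 alternatives that kept a gene's call is given where it was 21 or at most 11. Counts of called members of a list stand against 3.58% higher and 3.1% lower over all genes tested.

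**Figure D3:**
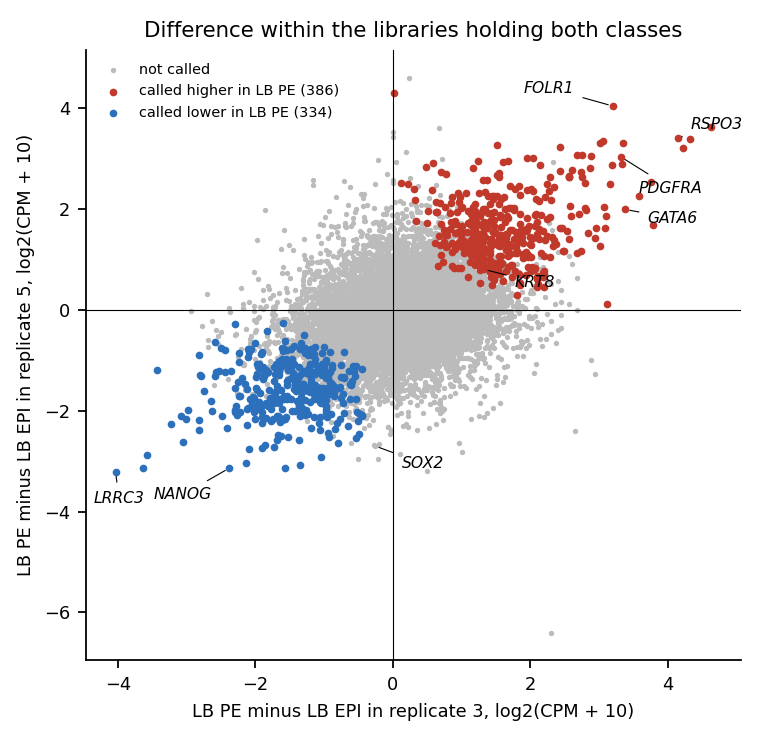
Difference between LB PE and LB EPI within replicate 3 (x axis) and within replicate 5 (y axis), on the log2(CPM + 10) scale, with 1 point per tested gene. Called genes lie in the upper right (386, higher in LB PE) and lower left (334), while SOX2 lies near 0 in replicate 3 and below -2 in replicate 5.

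Among the transcription factors, the GATA factors rose in LB PE and NANOG fell. GATA6, which opens the hypoblast programme, averaged 532.5 and 259.7 CPM in LB PE of replicates 3 and 5, against 27.3, 42.0 and 57.9 CPM in LB EPI of replicates 2, 3 and 5. The lowest LB PE library thus lay above the highest LB EPI library, and the log2 change was 2.87 (SE 0.36, adjusted p = 4.91e-05), called in 21 of 21 alternatives. GATA4, which acts after GATA6, averaged 40.7 and 20.1 CPM against 0.813, 3.02 and 4.15 CPM (log2 change 1.65, SE 0.32, adjusted p = 0.00339). GATA4 was low in both classes, and without replicate 3 its change of 1.27 was not called. Its call was not kept in all 3 alternatives on depth. The highest GATA4 value among LB PE cells, 175 CPM, was in the replicate 3 cell with 5703 reads.

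Of the 23 genes listed as hypoblast transcription factors, 19 were in the table and 13 were tested. Of these, 3 (23.1%) rose, GATA6 and GATA4 among them, and 4 (30.8%) fell, so that the median log2 change of the list was 0.10. The fallen members were TCF7L1 (-1.5), a repressor of WNT targets, the nuclear receptor NR5A2 (-1.76), TFAP2C (-1.12) and ETS2 (-1.32), factors that are also expressed outside the hypoblast. The ETS2 call was kept in 9 alternatives. Without replicate 5 none of these 4 was called, at -1.25, -1.41, -1.10 and -0.95. Without replicate 2 TCF7L1 (-1.42), NR5A2 (-1.99) and ETS2 (-1.45) lost their calls, and without replicate 3 TCF7L1 (-1.81), NR5A2 (-1.91) and TFAP2C (-1.12) did, as did ETS2 without replicate 1 (-1.32) or 4 (-1.32). HNF4A, a liver and visceral endoderm factor, averaged 184 and 174 CPM in LB PE and 144, 252 and 179 CPM in LB EPI, so that LB PE lay within the range of LB EPI (log2 change -0.07, adjusted p = 0.945). OTX2, a homeobox factor of both lineages in other mammals, averaged 367 and 120 CPM against 72.4, 59.0 and 107 CPM and missed the threshold (log2 change 1.34, adjusted p = 0.0548). SOX7 and EOMES, like SOX17, were at 0 in all 5 averages, and FOXA2 reached 4.41 CPM in LB PE of replicate 3 and at most 0.736 CPM in LB EPI.

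NANOG, the homeobox factor that marks epiblast, averaged 167.5 and 128.4 CPM in LB PE and 718.3, 914.9 and 1211.5 CPM in LB EPI. Every LB EPI library lay above both LB PE libraries, and the log2 change was -2.61 (SE 0.37, adjusted p = 0.000183), called in 21 of 21 alternatives. KLF17, a Kruppel-like factor of naive pluripotency in humans, averaged 6.12 and 4.46 CPM in LB PE and 55.8, 52.5 and 46.5 CPM in LB EPI (log2 change -2.01, SE 0.33, adjusted p = 0.000859). POU5F1 fell less, from 370, 309 and 221 CPM in LB EPI to 162 and 98.8 CPM in LB PE (log2 change -1.14, SE 0.33, adjusted p = 0.041). Its call was kept in 11 of 21 alternatives and was lost without replicate 2 (-0.99), without replicate 3 (-1.45) and without replicate 5 (-0.96).

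SOX2, a core pluripotency factor, did not pass the test, and its LB PE libraries stood apart from each other. It averaged 178.8 CPM in LB PE of replicate 3 and 17.0 CPM in LB PE of replicate 5, against 222.5, 216.6 and 165.0 CPM in LB EPI. The replicate 3 average of LB PE lay inside the LB EPI range and the replicate 5 average far below it (log2 change -1.55, SE 0.51, adjusted p = 0.0776). In replicate 3, LB PE cells ran from 0 to 858 CPM with a median of 76.1 CPM. In replicate 5 they ran from 0 to 127 CPM with a median of 0. The LB PE cell with 858 CPM of SOX2 was the deepest of that library, at 217918 reads, and also held 555 CPM of NANOG, 106 CPM of GATA6 and 50.5 CPM of PDGFRA. Without replicate 3 the SOX2 change was -2.90 and was called, and without replicate 5 it was -0.29. Among cells thinned to 20000 reads, 9 of 20 LB PE cells and 37 of 43 LB EPI cells held a SOX2 read (45.0% and 86.0%). Without thinning the shares were 48.0% and 100%.

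NANOG and GATA6 overlapped in single cells. After thinning, which left out 5 LB PE and 2 LB EPI cells, all 20 LB PE cells held a GATA6 read and 13 of them a NANOG read as well. All 43 LB EPI cells held a NANOG read, and 17 of them also held a GATA6 read. Unthinned, 92.0% of LB PE and 95.6% of LB EPI cells held a GATA6 read, so the presence of a read at full depth did not part the classes whereas its level did. The median GATA6 level was 351 CPM in LB PE cells and 26.3 CPM in LB EPI cells, and the median NANOG level was 81.6 and 885 CPM.

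Of 29 genes listed as pluripotency factors, 24 were tested, 6 fell and 3 rose, with a median log2 change of -0.37. Besides NANOG, KLF17, POU5F1 and TFAP2C, the fallen members were LIN28B (-1.70), an inhibitor of let-7 microRNA maturation, and ZSCAN10 (-1.45). The risen members were DPPA3 (1.87), a maternal factor that guards DNA methylation, ETV5 (1.5), a target of FGF and ERK signalling, and ZFP42 (1.18). DPPA3 averaged 95.0 and 178 CPM in LB PE and 43.4, 12.1 and 44.4 CPM in LB EPI, with no overlap. Calls were lost without replicate 3 for TFAP2C (-1.12), ETV5 (1.08), ZFP42 (0.82) and ZSCAN10 (-1.09), and without replicate 5 for DPPA3 (1.80), LIN28B (-1.35), ZFP42 (1.60), ZSCAN10 (-1.52) and TFAP2C (-1.10). ZFP42 (1.13) also lost its call without replicate 2 and ZSCAN10 (-1.45) without replicate 1, and each call was kept in 9 of 21 alternatives.

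**Figure D4:**
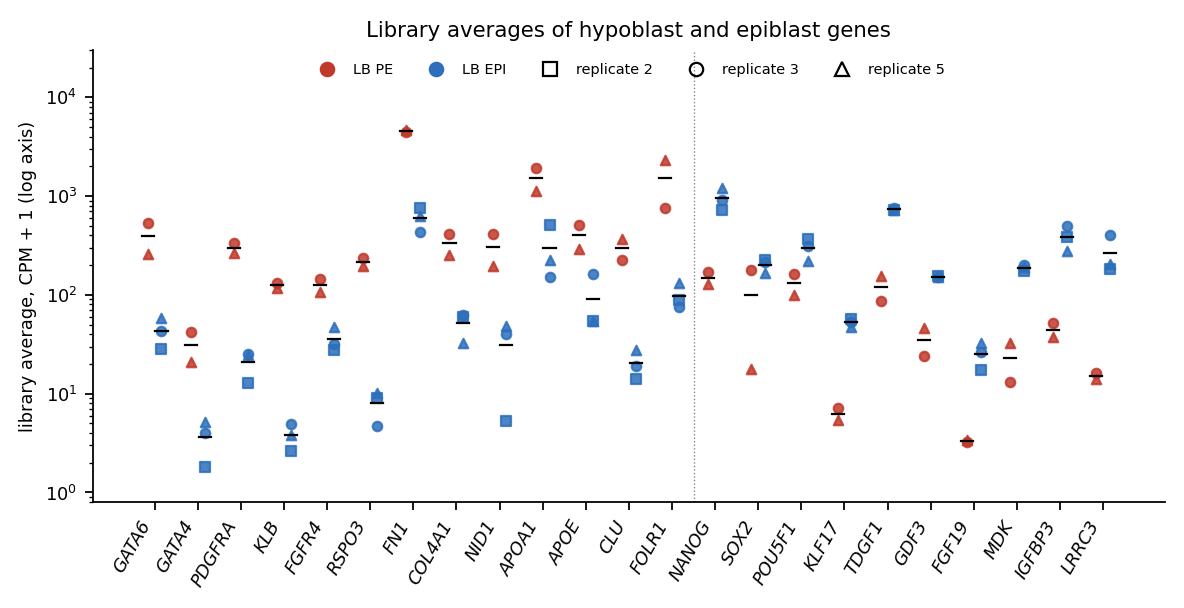
Library averages of hypoblast genes (left of the dotted line) and epiblast genes (right), as CPM + 1 on a log axis. Points are libraries, shaped by replicate, and bars are class means. Among the plotted genes SOX2 has an LB PE average inside the LB EPI range.

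In the FGF pathway 2 of the 7 ligands in the table were tested, and both, FGF2 and FGF19, were lower in LB PE, while the receptor FGFR4 and its co-receptor KLB were higher. Neither ligand was called with limma-voom. FGF2, a ligand, was at 0 in both LB PE averages and at 10.9, 9.92 and 23.7 CPM in LB EPI (log2 change -1.26, SE 0.28, adjusted p = 0.00808). With LB PE at 0, FGF2 entered the test only through averages of other classes, and it was not among the genes tested without replicate 2. FGF19, an endocrine ligand, averaged 2.25 and 2.37 CPM in LB PE and 16.3, 25.3 and 31.8 CPM in LB EPI (log2 change -1.44, SE 0.31, adjusted p = 0.00676). FGF19 too was under 10 CPM in LB PE, and its LB EPI averages alone met the filter. A ligand let in this way could hardly be higher in LB PE, so the shared direction of FGF2 and FGF19 is no evidence about the pathway. FGF4, the ligand that drives hypoblast fate in the mouse, was too low to be tested, at 0 in LB PE and at 1.42, 11.5 and 3.67 CPM in LB EPI. On the receptor side, FGFR4 averaged 143 and 106 CPM in LB PE and 26.9, 30.7 and 46.1 CPM in LB EPI (log2 change 1.62, SE 0.34, adjusted p = 0.00612). KLB, the beta-klotho co-receptor through which FGF19 binds FGFR4, averaged 132 and 117 CPM in LB PE and 1.65, 3.97 and 2.86 CPM in LB EPI. Both LB PE libraries stood far above all 3 LB EPI libraries (log2 change 3.41, SE 0.34, adjusted p = 3.95e-06), and the call was kept in 21 of 21 alternatives.

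FGFR1 and FGFR2 did not pass the test. FGFR1 averaged 54.8 and 0.543 CPM in LB PE, on either side of the 27.4, 27.9 and 13.4 CPM in LB EPI (log2 change -0.26, adjusted p = 0.831). FGFR2 averaged 53 and 14.4 CPM in LB PE and 9.93, 23.1 and 14.4 CPM in LB EPI (log2 change 0.64, adjusted p = 0.361). Of 24 tested receptors and ERK feedback genes, 3 rose (FGFR4, KLB and ETV5) and 0 fell, with a median of 0.26. At an unadjusted limma p under 0.05, 2 were lower, and limma-voom called 0 lower. DUSP6, an ERK phosphatase, averaged 31.2 and 67.2 CPM in LB PE and 132, 78.1 and 153 CPM in LB EPI and missed the threshold (log2 change -1.12, adjusted p = 0.0526). Without replicate 3 FGFR4 (1.33), ETV5 (1.08) and FGF19 (-1.40) were not called, nor were FGF2 (-0.98) and FGF19 (-1.31) without replicate 5.

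PDGFRA, the platelet-derived growth factor receptor by which hypoblast cells are recognised, averaged 333.2 and 264.8 CPM in LB PE and 11.7, 24.3 and 23.7 CPM in LB EPI. The classes did not overlap (log2 change 3.35, SE 0.35, adjusted p = 6.97e-06), and the call was kept in 21 of 21 alternatives. KIT, the stem cell factor receptor, averaged 121 and 257 CPM against 28.5, 58.8 and 59.9 CPM (log2 change 1.66, SE 0.46, adjusted p = 0.035). The KIT call was lost without replicate 2 (1.43), replicate 3 (2.22) or replicate 5 (1.28). PDGFRA and KIT were the only called members (28.6%) among the 7 tested of the PDGF and KIT list, whose median was -0.48.

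The NODAL pathway, which keeps epiblast cells pluripotent, had 4 of 18 tested members (22.2%) lower and 0 higher in LB PE, with a median of -0.07. At an unadjusted limma p under 0.05 or with limma-voom, 0 were higher. TDGF1, the NODAL co-receptor also called CRIPTO, averaged 85.4 and 154 CPM in LB PE and 727, 759 and 729 CPM in LB EPI (log2 change -2.57, SE 0.53, adjusted p = 0.00607). The LB EPI libraries lay close together and above both LB PE libraries. GDF3, a ligand of the same family, averaged 23.1 and 44.8 CPM against 154, 152 and 150 CPM (log2 change -1.96, SE 0.40, adjusted p = 0.00496). FSTL1 (-1.62), a secreted follistatin-like protein, and SMAD4 (-1.33), the common SMAD, were the other called members. NODAL itself was too low to be tested, at 0 and 7.94 CPM in LB PE and 0, 2.77 and 14.8 CPM in LB EPI, as was its inhibitor LEFTY2, at 0 in LB PE and 4.87, 5.78 and 2.09 CPM in LB EPI. Without replicate 3, TDGF1 (-2.10), GDF3 (-1.63) and FSTL1 (-1.46) were not called. Without replicate 5, TDGF1 (-2.97), FSTL1 (-1.61) and SMAD4 (-1.08) were not called, nor was SMAD4 without replicate 2 (-1.32).

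In the BMP pathway 2 of 15 tested members (13.3%) were lower in LB PE and 0 higher, with a median of -0.18. At an unadjusted limma p under 0.05, 1 was higher, and limma-voom called 0 in either direction. SMAD9, a SMAD that BMP receptors activate, was at 0 in both LB PE averages and at 27.0, 19.4 and 10.9 CPM in LB EPI (log2 change -1.48, SE 0.28, adjusted p = 0.00255). Like FGF2, SMAD9 met the 10 CPM filter without any LB PE average. Its LB EPI averages alone were enough, an entry that favours a lower LB PE value. ID1, a BMP target, averaged 32.6 and 4.72 CPM against 80.4, 149 and 59.6 CPM (log2 change -1.96, SE 0.47, adjusted p = 0.015). Without replicate 3 neither SMAD9 (-1.41) nor ID1 (-2.22) was called, and ID1 was not called without replicate 5 (-1.61).

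In the WNT pathway RSPO3, a secreted protein that strengthens WNT receptor signalling, had the second largest rise among called genes with a symbol (LOC names left out). It averaged 232.4 and 193.0 CPM in LB PE and 8.01, 3.73 and 9.18 CPM in LB EPI, with no overlap (log2 change 3.79, SE 0.37, adjusted p = 2.84e-06), called in 21 of 21 alternatives. Of 19 tested members, RSPO3 and CTNNB1 (1.21), which encodes beta-catenin, rose and the nuclear partners TCF7L1 (-1.5) and TCF7L2 (-1.58) fell, with a median of -0.13. Each direction held 10.5% of the list. AXIN2, a feedback target, averaged 12.2 and 29.3 CPM against 5.20, 2.89 and 0.760 CPM and missed the threshold (log2 change 1.21, adjusted p = 0.0801). CTNNB1 (0.91), TCF7L2 (-0.95) and TCF7L1 (-1.25) were not called without replicate 5, nor was TCF7L1 without replicate 2 (-1.42) or 3 (-1.81).

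Among cytokine and growth factor genes, IL6R, the interleukin 6 receptor, rose from 9.51, 27.8 and 19.6 CPM in LB EPI to 70.7 and 60.7 CPM in LB PE (log2 change 1.41, SE 0.39, adjusted p = 0.0331). It was the only called member of 15 tested (6.67%) in the LIF and IL6 receptor list, whose median was 0.35. STAT3, which these receptors activate, averaged 53.9 and 20.5 CPM against 4.97, 11.8 and 9.16 CPM and missed the threshold (log2 change 1.23, adjusted p = 0.0521). MDK, which encodes the growth factor midkine, averaged 12.2 and 31.9 CPM in LB PE and 175, 197 and 190 CPM in LB EPI (log2 change -2.70, SE 0.32, adjusted p = 2.12e-05). IGFBP3, which binds insulin-like growth factors, averaged 51 and 36.1 CPM against 384, 496 and 274 CPM (log2 change -2.86, SE 0.38, adjusted p = 0.000103), called in 21 of 21 alternatives. In the IGF list of 17 tested members, MDK and IGFBP3 fell (11.8%) and IGFBP4 (1.31) rose (5.88%), with a median of -0.31. IL6R lost its call without replicate 2 (1.18), 3 (1.48) or 5 (1.53), and IGFBP4 without replicate 2 (1.25) or 5 (0.53), while without replicate 3 its change was 2.14. Their calls were kept in 10 and 8 alternatives.

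Of 27 tested basement membrane and matrix genes, 9 (33.3%) were higher in LB PE, 0 were lower and 18 were not called. Over all genes tested, 3.58% were higher and 3.1% lower. The list's median log2 change was 0.86, against -0.01 over all genes. At an unadjusted limma p under 0.05, 16 were higher and 2 lower, and limma-voom called 8 higher and 0 lower. FN1, which encodes fibronectin, averaged 4472 and 4714 CPM in LB PE and 756, 434 and 624 CPM in LB EPI (log2 change 2.96, SE 0.27, adjusted p = 1.96e-06). Its call was kept in all 22 alternatives, the depth covariate included. NID1, the nidogen that links laminin to collagen IV, averaged 408 and 197 CPM against 4.31, 38.9 and 46.9 CPM (log2 change 2.90, SE 0.54, adjusted p = 0.00324). COL4A1, a chain of collagen IV, averaged 409 and 252 CPM against 59.0, 61.1 and 31.4 CPM (log2 change 2.57, SE 0.51, adjusted p = 0.00491). AGRN, the heparan sulphate proteoglycan agrin, averaged 202 and 275 CPM against 65.7, 54.9 and 41.8 CPM (log2 change 2.0, SE 0.31, adjusted p = 0.00053), called in 21 of 21 alternatives. In each of these 4 genes both LB PE libraries lay above all LB EPI libraries.

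The laminin chains LAMA1 (1.80) and LAMC1 (1.41), the fibulin FBLN1 (1.93), and SERPINH1 (1.43) and PLOD2 (1.63), which serve collagen folding and crosslinking, completed the called matrix genes. The third laminin chain, LAMB1, averaged 285 and 85.3 CPM against 26.9, 107 and 49.3 CPM and missed the threshold (log2 change 1.37, adjusted p = 0.0652). Among 14 tested integrins and matrix receptors, ITGA5 (1.67), the alpha chain of the fibronectin receptor, and the syndecan SDC1 (1.61) rose (14.3%), with a median of -0.15. Without replicate 3 the calls of NID1 (2.59), COL4A1 (2.40), LAMA1 (1.13), LAMC1 (1.09), FBLN1 (2.23), SERPINH1 (1.49), PLOD2 (1.23) and ITGA5 (1.33) were lost. Without replicate 5 those of COL4A1 (2.66), LAMA1 (2.46), FBLN1 (1.73), SERPINH1 (1.53) and SDC1 (1.19) were lost. LAMA1 (1.80), LAMC1 (1.49), SERPINH1 (1.26), PLOD2 (1.43) and SDC1 (1.53) lost their calls without replicate 2, and LAMC1 (1.41) also without replicate 1, 4 or 6. The calls of LAMA1, LAMC1, SERPINH1 and SDC1 were kept in 10, 6, 11 and 8 alternatives. Fibroblast markers, which include matrix genes, were high in some cells. The 12 markers were all detected in LB PE of replicate 3 and 11 in replicate 5, with PDGFRB at 0 there. They summed to 131 to 3156 CPM per cell in LB PE of replicate 3 and 161 to 9214 CPM in replicate 5, against 223 to 1108, 236 to 2658 and 80.6 to 8184 CPM in LB EPI of replicates 2, 3 and 5. None of the 11 tested fibroblast markers was called by limma or limma-voom, 2 were higher at an unadjusted limma p under 0.05, and their median log2 change was 1.21. Their part in the matrix result was not tested.

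The list of apolipoproteins and yolk sac secretion had the highest share of rises. Of its 30 genes, 21 were in the table and 14 were tested. Of these, 6 (42.9%) were higher and 1 lower, with a median of 1.08. Among the untested members, TTR, SERPINA1, FGA and APOC3 were at 0 in both LB PE averages. FGB reached 6.23 and 19.1 CPM there, APOA4 0 and 11.6 CPM, and AHSG 0 and 0.622 CPM. APOB, AFP, ALB and TF were among the genes not in the table. APOA1, the main protein of high density lipoprotein, averaged 1911 and 1112 CPM in LB PE and 514, 150 and 226 CPM in LB EPI (log2 change 2.64, SE 0.45, adjusted p = 0.00161). APOE, a ligand of lipoprotein receptors, averaged 514 and 289 CPM against 52.9, 161 and 53.4 CPM (log2 change 2.17, SE 0.46, adjusted p = 0.00647). APOA2 averaged 78.3 and 20.8 CPM against 0.327, 2.36 and 0.755 CPM (log2 change 2.23, SE 0.32, adjusted p = 0.000213). None of the 3 overlapped between the classes. CLU, which encodes the secreted chaperone clusterin, averaged 223 and 365 CPM against 13.0, 18 and 26.7 CPM (log2 change 3.37, SE 0.47, adjusted p = 0.000176). MTTP, which loads lipid onto apolipoprotein B, averaged 23.6 and 29.5 CPM against 1.22, 1.47 and 0.955 CPM (log2 change 1.75, SE 0.33, adjusted p = 0.0026). FOLR1, the folate receptor alpha, averaged 763 and 2294 CPM in LB PE and 88.3, 74.4 and 130 CPM in LB EPI. Its LB PE libraries differed from each other, yet both lay above every LB EPI library (log2 change 3.67, SE 0.31, adjusted p = 7.05e-07), and its call was kept in all 22 alternatives. CRABP1, a retinoic acid binding protein, was the member that fell (-1.38). Without replicate 3 APOA1 (1.96) and CRABP1 (-1.63) were not called, and without replicate 5 APOE (2.24), MTTP (1.63) and CRABP1 (-1.08) were not. The CRABP1 call was kept in 11 alternatives.

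Endocytic receptors serve extraembryonic epithelia in taking up maternal protein. Of 16 tested members 0 rose and 1 (6.25%, against 6.68% of all genes) was called, the adaptor EPS15, which fell (-1.54, not called without replicate 5, at -0.69), with a median of 0.08. Before adjustment 1 was higher at a limma p under 0.05, and limma-voom called 0. The receptor LRP2 (megalin) averaged 294 and 134 CPM in LB PE and 80.4, 186 and 116 CPM in LB EPI (log2 change 0.66, adjusted p = 0.303). Its adaptor DAB2 averaged 167 and 90.4 CPM against 52.0, 67.8 and 78.2 CPM (log2 change 0.82, adjusted p = 0.145).

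Epithelial junction and keratin genes were higher in LB PE, with 11 of 35 tested members (31.4%) called higher and 0 lower, and a median of 0.73. At an unadjusted limma p under 0.05, 17 were higher and 0 lower, and limma-voom called 5 higher and 0 lower. CGN, the tight junction adaptor cingulin, averaged 194 and 76.7 CPM in LB PE and 8.69, 19.0 and 12.1 CPM in LB EPI (log2 change 2.57, SE 0.44, adjusted p = 0.00137). CLDN4, a claudin of the tight junction, averaged 580 and 407 CPM against 144, 165 and 95.4 CPM (log2 change 1.90, SE 0.41, adjusted p = 0.00777). CLDN6, the claudin of early epithelia, averaged 1679 and 1582 CPM against 892, 467 and 585 CPM (log2 change 1.42, SE 0.23, adjusted p = 0.000882). None of these 3 overlapped between the classes. OCLN (1.45), CLDN23 (1.49), the linker EZR (1.25), CDH2 (1.23), CTNNB1 (1.21), KRT19 (1.61) and KRT8 (1.22) were also called. Without replicate 3 the calls of CGN (2.24), CLDN4 (1.98), CLDN6 (1.18), OCLN (1.39), CLDN23 (1.54), EZR (1.12), CDH2 (0.98), KRT19 (1.58) and KRT8 (0.92) were lost. Without replicate 5 those of EZR (1.32), CLDN23 (1.56), CDH2 (1.61), CTNNB1 (0.91) and KRT19 (1.98) were lost. KRT19 (1.23), KRT8 (1.06) and CDH2 (1.09) also lost their calls without replicate 2, CLDN23 (1.48) and CDH2 (1.22) without replicate 1, and CDH2 (1.23) without replicate 4 or 6. The calls of CDH2, CLDN23, CTNNB1 and KRT8 were kept in 3, 8, 11 and 11 alternatives.

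These genes are also expressed by trophectoderm, and trophectoderm markers were higher in LB PE of replicate 3 than of replicate 5. All 11 such markers were detected in replicate 3, where they summed to 3122 to 16483 CPM per cell. In replicate 5 the 7 detected summed to 880 to 7671 CPM, with CDX2, GATA2, TFAP2A and ELF5 at 0. The mean sums were 6676 and 2748 CPM, and the keratins KRT8 and KRT18, whose levels follow, supplied most of both. In LB EPI the sums ran from 966 to 2072, 1072 to 6232 and 682 to 7371 CPM in replicates 2, 3 and 5, and the LB TE (trophectoderm) cells of replicates 3 and 5 held 23225 to 73842 CPM. KRT8, a simple epithelial keratin, averaged 3580 and 1446 CPM in LB PE against 769, 1427 and 823 CPM in LB EPI (log2 change 1.22, SE 0.28, adjusted p = 0.0123). With cells under 50000 reads left out, the KRT8 change was 0.53 and not called, while CGN (1.77), CLDN4 (1.59) and CLDN6 (1.56) were called. KRT18 averaged 1895 and 470 CPM against 457, 772 and 267 CPM (log2 change 1.05, adjusted p = 0.148). CDX2 and GATA3, which define trophectoderm, did not pass the test either, at 9.29 and 0 CPM against 2.21, 0 and 0.887 CPM, and at 98.4 and 74.3 CPM against 49.5, 39.5 and 35.6 CPM (adjusted p = 0.667 and 0.06). Of 25 tested trophectoderm genes, 3 (12%) rose (KRT8, PLAC8 and AQP3) and 2 (8%) fell (TFAP2C and SSLP1), with a median of 0.58. Without replicate 3 KRT8 (0.92), PLAC8 (1.36), AQP3 (1.08), TFAP2C (-1.12) and SSLP1 (-2.26) were not called. Without replicate 5 AQP3 (2.15), TFAP2C (-1.10) and SSLP1 (-1.68) were not called, nor were KRT8 without replicate 2 (1.06) or SSLP1 without replicate 4 (-2.09) or 6 (-2.09). The SSLP1 call was kept in 10 alternatives.

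Among 18 tested polarity genes 1 rose, MSN (1.61), which encodes the linker moesin, and 1 fell, PRKCI, an atypical protein kinase C of the apical complex. PRKCI averaged 205 and 178 CPM in LB PE and 483, 486 and 545 CPM in LB EPI, with no overlap (log2 change -1.39, SE 0.35, adjusted p = 0.0175). The median of the list was 0.21, and each direction held 5.56% of it, against 3.58% higher and 3.1% lower over all genes. MSN was not called without replicate 3 (1.13), and PRKCI was not called without replicate 2 (-1.39), 3 (-1.61) or 5 (-1.19).

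The replication and mitosis genes called in the main test were all lower in LB PE. Of 36 tested replication and mitosis genes, 4 (11.1%, against 3.1% of all genes) fell and 0 rose, with a median of -0.34. Before adjustment, at a limma p under 0.05, 9 were lower and 2 higher, and limma-voom called 3 lower and 1 higher. TOP2A, the topoisomerase of dividing cells, averaged 742 and 842 CPM in LB PE and 2388, 1926 and 3065 CPM in LB EPI, with no overlap (log2 change -1.68, SE 0.33, adjusted p = 0.0035), called in 21 of 21 alternatives. POLA1 (-1.64), a subunit of DNA polymerase alpha, CCND2 (-1.34), which encodes cyclin D2, and GINS2 (-1.24), part of the replicative helicase, were the other called members. Without replicate 3 the calls of POLA1 (-2.01), CCND2 (-0.45) and GINS2 (-1.13) were lost, without replicate 5 those of POLA1 (-1.38) and GINS2 (-1.34), and without replicate 2 that of POLA1 (-1.52). POLA1 did not keep its call in all 3 alternatives on depth, and CCND2 turned to 0.41 with the depth covariate.

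The metabolic lists were read against the 3.58% of all genes called higher and the 3.1% called lower (6.68% together). SLC2A5, a fructose transporter, averaged 35.4 and 185 CPM in LB PE and 7.39, 5.83 and 10.3 CPM in LB EPI (log2 change 2.34, SE 0.46, adjusted p = 0.00426). The lactate and pyruvate transporter SLC16A1 rose as well (1.02), and the glycolytic enzyme PGAM1 fell (-1.22), so that 2 of 24 glycolysis genes (8.33%) rose and 1 (4.17%) fell, with a median of -0.36. NDUFV1 (1.08), a subunit of complex I, was the only call among 31 oxidative phosphorylation subunits, whose median was 0.25. Lipid and sterol synthesis had 0 calls among 25 genes (median 0.22), and ribosomal proteins had 0 among 34 (median -0.08). At an unadjusted limma p under 0.05 these numbers were 0 and 1, and limma-voom called 0 in both. SLC2A5 (1.33), PGAM1 (-1.30) and NDUFV1 (0.71) were not called without replicate 5. Without replicate 3 SLC16A1 (0.42), PGAM1 (-1.02) and NDUFV1 (1.24) were not, nor were SLC16A1 without replicate 1 (1.02) or 2 (1.06), although it was called at 1.59 without replicate 5, and NDUFV1 without replicate 1 (1.08). The NDUFV1 call was kept in 9 alternatives.

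Among 33 tested apoptosis and stress genes 3 (9.09%) rose and 1 (3.03%) fell, with a median of -0.06. Over all genes 3.58% rose and 3.1% fell. PMAIP1, which encodes the pro-apoptotic protein NOXA, averaged 95.1 and 272 CPM in LB PE and 26.2, 9.57 and 20.03 CPM in LB EPI (log2 change 2.78, SE 0.55, adjusted p = 0.00491). JUN (1.68), a stress-responsive factor, and MCL1 (1.08), the survival protein that NOXA binds, were the other rises, and the MTOR inhibitor DDIT4 fell (-2.08). Without replicate 3 JUN (1.32), MCL1 (1.29) and DDIT4 (-1.01) were not called, and without replicate 5 PMAIP1 (2.34), JUN (1.71) and MCL1 (0.95) were not. The MCL1 call was kept in 2 of 21 alternatives and was also lost without replicate 1 (1.08), 2 (0.97), 4 (1.08) or 6 (1.08). Among 31 chromatin genes 0 rose, with a median of -0.26, while 2 were higher at an unadjusted limma p under 0.05 and limma-voom called 1 higher. The histone demethylases KDM2B (-1.34) and KDM4A (-1.28) fell, 6.45% of the list against 3.1% of all genes. Neither was called without replicate 2 (-1.44 and -1.27) or replicate 5 (-0.79 and -1.42), and KDM4A, whose call was kept in 10 alternatives, was not without replicate 3 (-1.16), 4 (-1.28) or 6 (-1.28).

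**Figure D5:**
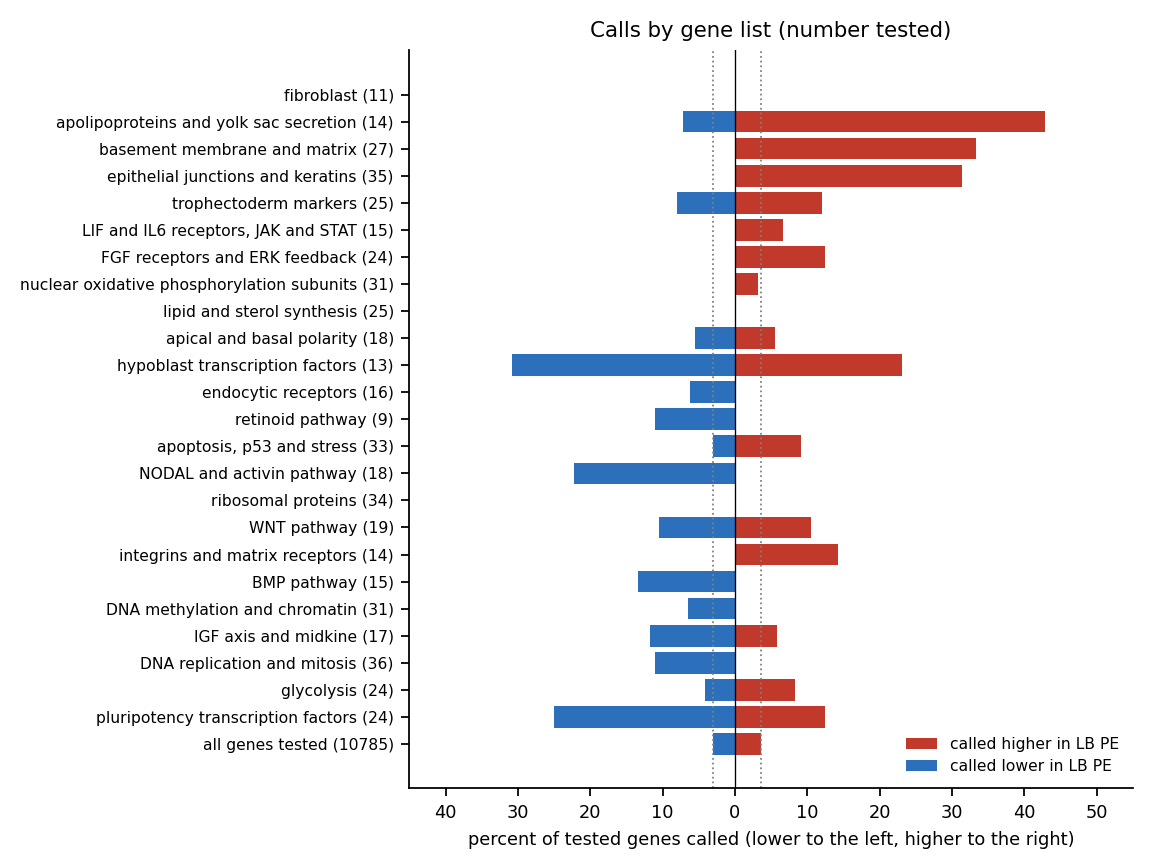
Percent of the tested genes of each list (number tested in brackets, lists with at least 9 tested) that were called higher (red, right) or lower (blue, left) in LB PE. Lists are ordered by median log2 change with all tested genes at the bottom, and the dotted lines are the 3.58% and 3.1% of all genes.

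Outside the lists, the genes with the largest rises included transporters and membrane proteins. SLC1A3, a glutamate transporter, averaged 204 and 144 CPM in LB PE and 1.87, 1.47 and 6.58 CPM in LB EPI (log2 change 3.83, SE 0.36, adjusted p = 2.06e-06), and was the largest rise among called genes with a symbol. MPZL2, an epithelial adhesion protein, averaged 559 and 362 CPM against 27.7, 18.4 and 25.7 CPM (log2 change 3.74, SE 0.31, adjusted p = 7.05e-07). SLC6A20, an amino acid transporter, averaged 254 and 273 CPM against 23.4, 19.0 and 28.9 CPM (log2 change 3.05, SE 0.36, adjusted p = 1.77e-05). FCGR2B, an immunoglobulin receptor, was at 0 in LB EPI of replicates 2 and 3 and at 3.30 CPM in replicate 5, against 54.2 and 102 CPM in LB PE (log2 change 2.87, SE 0.36, adjusted p = 4.91e-05). All 4 kept their calls in 21 of 21 alternatives, as did AK3 (2.98), a mitochondrial adenylate kinase. LZTS1 (3.21) and MYOM1 (2.93) were the other rises of that size, and LZTS1 lost its call without replicate 5 (3.29).

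The largest falls, which are the genes highest in LB EPI relative to LB PE, were of varied kinds. LRRC3, a leucine-rich repeat membrane protein, averaged 15.3 and 12.9 CPM in LB PE and 180, 404 and 203 CPM in LB EPI (log2 change -3.48, SE 0.38, adjusted p = 9.93e-06). PPP2R2B, a regulatory subunit of protein phosphatase 2A, averaged 6.54 and 1.04 CPM against 103, 195 and 86.9 CPM (log2 change -3.26, SE 0.36, adjusted p = 1.4e-05). ERAS, a RAS protein of embryonic stem cells, averaged 15.2 and 21.4 CPM against 224, 289 and 221 CPM (log2 change -3.23, SE 0.43, adjusted p = 8.97e-05). These 3, SH3BGRL (-2.57) and the mitochondrial carbonic anhydrase CA5B (-2.36) were called in 21 of 21 alternatives. The other falls of that size were FOXO1 (-2.46), UPP1 (-2.45), ACTG2 (-2.34), LY6E (-2.33), TBC1D9 (-2.30) and MAGI1 (-2.27). Without replicate 3 FOXO1 (-2.05), UPP1 (-2.08), ACTG2 (-1.99), LY6E (-2.53) and TBC1D9 (-3.23) were not called. Without replicate 5 FOXO1 (-2.75), UPP1 (-2.64), ACTG2 (-2.55), LY6E (-2.41), TBC1D9 (-1.34) and MAGI1 (-1.36) were not, nor was UPP1 without replicate 2 (-2.60).

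Levels in the inner cell mass of day 8 (MB ICM, replicates 1, 2 and 5) are given as a description, since age and lineage both differ from day 9. Of the 386 genes higher in LB PE, the MB ICM mean lay between the class means for 308, at 151 nearer LB PE and 157 nearer LB EPI, below both for 49 and above both for 29. Of the 334 genes lower in LB PE, it lay between for 219, at 160 nearer LB PE and 59 nearer LB EPI, below both for 108 and above both for 7. These genes were selected for a gap between LB PE and LB EPI, so the mean of any other class can fall between by that selection. Positions were not counted over all genes tested, so the counts do not show that MB ICM was intermediate. FN1 averaged 3438 CPM in MB ICM, near the 4593 CPM mean of LB PE and above the 605 CPM mean of LB EPI. NANOG averaged 154 CPM in MB ICM, near the 148 CPM of LB PE and below the 948 CPM of LB EPI. TDGF1 (33.3 CPM) and LRRC3 (3.15 CPM) were lower in MB ICM than in either day 9 class. CLU (17.7 CPM) and APOE (66.4 CPM) in MB ICM were below the LB EPI means of 19.2 and 89.1 CPM.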

How the data were processed

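The deposited table holds natural log values, ln(1 + value per 10000), of 18825 genes in 286 cells. Tools named in the submitters' processing notes are Seurat, featureCounts, HISAT2 and Trim Galore, without versions, with the build ARS-UCD1.2. Undoing the authors' natural log gave cells summing to 10000, and 100% of values were whole multiples of a cell's smallest step within 0.1 reads, which gave each cell's reads. Since the values are not raw counts, no count model was the main test.

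CPM values were averaged per library and class (at least 3 cells), giving 16 averages over 7 classes, and transformed as log2(CPM + 10). Genes reaching 10 CPM in as many averages as the smaller class held were fitted with limma 3.58.1 (R 4.3.3, statmod 1.5.0; trend and robust options), all classes in 1 fit and the library as a random block (consensus correlation 0.200). A gene under 10 CPM in LB PE or in LB EPI could thus enter through the other of these classes alone, where it is high. P-values were adjusted by Benjamini-Hochberg over all genes tested, and SE is the standard error of the log2 change. LB PE of replicate 2 (2 cells) and LB EPI of replicate 1 (1 cell) did not enter. The fit was tested on simulated data. Each alternative changed 1 choice, and the added ones (at least 2 cells per average, and cells under 50000 reads left out) were chosen after seeing the data.

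The genes named were 22 lineage genes, the 15 largest rises and 15 largest falls with a symbol, and listed members by adjusted p or role. The members, lists and alternatives were chosen with earlier results of these data known. S100A10, PHC1 and OXCT1, and the day 8 levels, were chosen after their values were seen. Of the other lists, oocyte transcripts had 1 of 7 tested members called (DPPA3, higher), cumulus and granulosa genes 1 of 4 (TNFAIP6, lower, called in 10 of 21 alternatives and not without replicate 1 (-1.43), 3 (-1.85) or 5 (-0.77)), retinoid genes 1 of 9 (CRABP1, lower) and blood genes 0 of 2 (1 lower at an unadjusted limma p under 0.05, 0 with limma-voom). No mitochondrially encoded gene was in the table. Some listed members are not reported here.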

Additional observations from a re-analysis of the deposited data

How the results depend on the processing

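Among called genes with a value, 97.4% kept their direction with the depth covariate and at least 99.3% in each other alternative. With the 50 CPM filter 479 of the 720 had a value, and all 479 kept it. Calls numbered 411 with no replicate block, 706 with the replicate block as a fixed term, 402 with only the LB PE and LB EPI averages, 428 with no filter, 411 after thinning, 421 with limma-voom, 10 with depth as a covariate and 342 with at least 2 cells per average. The numbers of calls without each replicate in turn ran from 260 to 681. Without replicate 3 or 5 a single LB PE average is left, which is assumed to vary like the other classes. The share of calls higher in LB PE was 70% with the depth covariate, 72.2% with limma-voom, 23.9% with log values averaged over cells and 41.5% with at least 2 cells per average, and ran from 53 to 78.8% over the fits without a replicate. The cause of these shifts was not tested, beyond the fewer averages in the reduced fits. The library pairs the classes in replicates 3 and 5, and the difference of the 2 libraries in LB PE and in LB EPI correlated at 0.259 over genes.

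Of the named genes, 2 called ones turned, CCND2 with the depth covariate (0.41) and SDC1 after thinning (-0.085). Uncalled ones turned with the depth covariate (CDX2 -0.79, KRT18 -0.70, LRP2 -0.40), and over the fits without a replicate, which ran from -0.18 to 0.81 for CDX2, from -0.24 to 0.13 for HNF4A and from -1.43 to 0.83 for FGFR1. FGFR1 turned too after thinning (0.65), with a pseudocount of 50 (0.016) and with at least 2 cells per average (0.0091), where FGFR2 turned too (-0.021). The LB PE depth, with 5 of 25 cells under 20000 reads, limits what can be said of low genes. A description of promoter letters was not run, since no sequence was at hand.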
